A study of Sus scrofa with 16 samples.

Results

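The cytoplasmic ribosomal protein genes of cultured porcine aortic valve cells are described here across 2 culture surfaces and both sexes. They are the 79 of 29552 named genes of the count table whose symbol is RPL or RPS with a number and at most one of the letters A, X or L, together with RPLP0, RPLP1, RPLP2 and RPSA. Of these, 32 belong to the small and 47 to the large ribosomal subunit. Genes with LOC symbols and the RPS6K kinases were not taken. The measurements are polyA RNA-seq counts of 16 libraries. All come from valvular interstitial cells, which resemble fibroblasts and populate the valve leaflet, isolated from the aortic valves of pigs of 5 to 6 months and grown for 48 hours in Media 199 with 1% serum and antibiotics. The 4 groups, each n = 4, were male cells on a poly(ethylene glycol)-norbornene hydrogel with a modulus of about 5.8 kPa, male cells on tissue culture plastic, female cells on the same gel and female cells on plastic. The submitters regard the gel cultures as quiescent fibroblasts and the plastic cultures as myofibroblasts, the contractile, matrix-depositing state of these cells. The labels speak of 4 male and 4 female biological replicates and name no strain or animal. Plastic and gel differ in chemistry as well as in stiffness, and the groups cannot tell these apart.

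Each ribosome holds 1 copy of nearly every ribosomal protein, and cells therefore make the proteins in matched amounts. Most of their mRNAs begin with a terminal oligopyrimidine tract, through which the mTOR kinase and the RNA-binding protein LARP1 set how much of the mRNA is translated and how long it lasts. The genes are spread over the genome and are transcribed together in growing cells, and the subunits are assembled in the nucleolus. A handful of members also act outside the ribosome, such as RPL5 and RPL11, which bind and inhibit the ubiquitin ligase MDM2. The abundance of an mRNA measured here does not give the rate at which it is translated.

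Libraries held 16.9 to 27.44 M counts (M, mega-counts), with the lowest total and the fewest detected genes (15476) in male gel 2. Markers of the labelled cell type were present: 12 of 12 valve interstitial markers were tested and together reached 54410 to 78400 counts per M (CPM, scaled by the trimmed mean of M-values, TMM). They moved in both directions on plastic: 4 rose and 4 fell in male cells, and 2 rose and 5 fell in female cells. FN1 was at 13190 to 15980 CPM on gel and 20220 to 24230 CPM on plastic. PDGFRA was at 1096 to 1957 CPM on gel and 237.9 to 327.7 CPM on plastic. All 6 tested myofibroblast markers rose on plastic in both sexes, by a median log2 change of 1.72 in male and 1.71 in female cells. Of 11 leukocyte markers 8 did not pass the filter on low counts, among them PTPRC, AIF1 and CD3E with at most 3 counts in any library. Of the 3 tested, LAPTM5 rose on plastic in both sexes (log2 changes 2.35 in male and 2.14 in female cells), from 0.5647 to 4.974 CPM in the gel libraries to 3.719 to 33.71 CPM in the plastic libraries. CD14 fell in both (-1.21 and -1.40), and CD68 was not called. Summed leukocyte levels were 6.212 to 13.29 CPM in male gel, 8.356 to 17.67 in male plastic, 11.95 to 15.14 in female gel and 9.018 to 38.59 in female plastic. Of 10 counted markers of cardiac and skeletal muscle, 7 had at most 3 counts in any library. Of the other 3, ACTC1, a sarcomeric actin, rose on plastic in both sexes (4.44 and 4.08), from 0.07247 to 5.85 CPM on gel to 3.153 to 95.46 CPM on plastic. RYR2 rose as well (2.56 and 2.42) and TNNI3 was not called. Summed muscle levels were 1.481 to 7.378 CPM in male gel, 13.65 to 97.68 in male plastic, 1.775 to 4.992 in female gel and 6.173 to 69.11 in female plastic. The part of leukocyte or muscle cells in the surface differences given next was not tested. The 15 endothelial markers were all tested and together reached 179.2 to 375.6 CPM in male gel, 227.8 to 425.5 in male plastic, 199.7 to 373 in female gel and 241.9 to 688.4 in female plastic. On plastic 1 rose in male and 2 in female cells and none fell, where 12.9% and 12.7% of all tested genes rose. Their median log2 changes were 0.42 and 0.73 (all tested genes, -0.034 and -0.037). With the culture number as a block 5 rose in either sex, where 15.5% and 14.5% of all tested genes rose.

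Male gel 2 and female plastic 4 stood apart in the ribosomal protein genes. For each gene the log2 CPM of a library was set against the mean of the other 3 libraries of its group. The SD of these deviations over the 77 tested ribosomal protein genes was 0.496 in male gel 2 and 0.356 in female plastic 4, against 0.062 to 0.205 in the other 14 libraries. In male gel 2, 14 of the genes lay more than 0.5 above and 11 more than 0.5 below the other libraries. In female plastic 4, 4 lay above and 9 below. Of all tested genes 46.2% lay more than 0.5 away in male gel 2 and 28.1% in female plastic 4. These shares are larger than those of the ribosomal protein genes, so the divergence was not particular to them. Over all 14530 tested genes the SD was 0.84 in male gel 2, the highest of the 16, and 0.567 in female plastic 4, where other libraries reached 0.606.

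**Figure D1:**
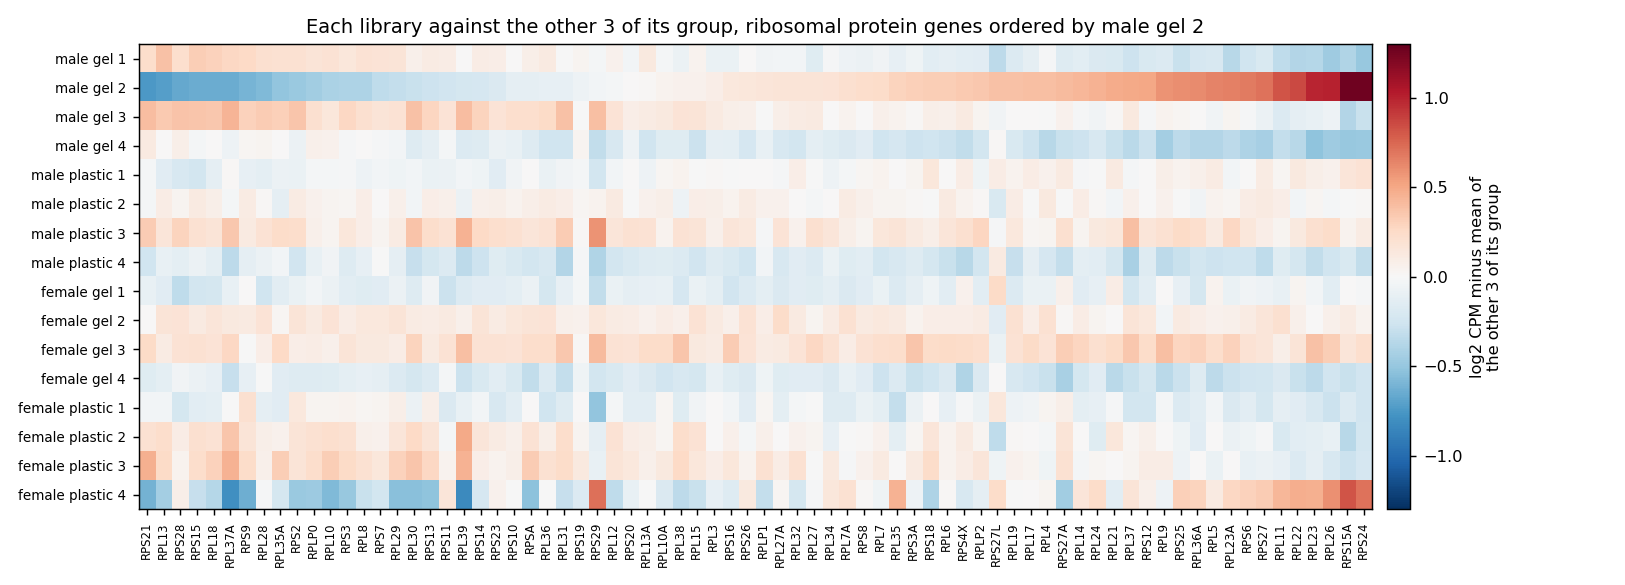
Deviation of 74 of the 77 tested ribosomal protein genes (columns, ordered by male gel 2) in each of the 16 libraries (rows) from the mean log2 CPM of the other 3 libraries of the same group. Blue is lower and red is higher. Male gel 2 runs from -0.75 (RPS21) to 1.26 (RPS24 and RPS15A), and female plastic 4 has the next widest spread.

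The ribosomal protein genes made up a smaller share of the counts on plastic than on gel in both sexes. In male gel cultures 1 to 4 they held 4.49%, 4.891%, 4.837% and 4.195% of all counts, and in male plastic cultures 1 to 4 they held 3.402%, 3.489%, 3.588% and 3.143%. The female gel libraries held 4.657%, 5.013%, 5.237% and 4.465%, and the female plastic libraries 3.519%, 3.45%, 3.51% and 3.315%. Every plastic library thus lay below every gel library, with group means of 4.60 ± 0.325% and 3.41 ± 0.191% in male cells and 4.84 ± 0.347% and 3.45 ± 0.0941% in female cells (SD, n = 4). In bulk RNA, fewer cells of a type and less RNA per cell cannot be told apart.

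A share of counts depends on what fills the rest of the library. The 20 most abundant genes outside the ribosome held 14.6 ± 0.918% of counts in male gel and 20.3 ± 0.319% in male plastic, and 14.2 ± 1.27% and 19.7 ± 0.798% in the female groups. After TMM scaling, the summed level of the ribosomal protein genes was 38110 to 46670 CPM in male gel and 33590 to 40070 CPM in male plastic, so that the male groups overlapped. In female cells it was 39740 to 48800 CPM on gel and 35800 to 38980 CPM on plastic, with no overlap. Between gel and plastic cultures of the same sex and number the TMM-scaled sum was lower on plastic in 8 of 8 pairs, by log2 differences of -0.13 to -0.32, and the unscaled share by -0.40 to -0.58. On either surface male 4 had the lowest scaled sum of the male cultures, and female 1 and female 4 had lower sums than female 2 and female 3. The same 3 cultures had the highest endothelial marker sums of their sex on each surface. The part of endothelial cells in these levels was not tested.

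The balance between the subunits also differed between surfaces. The summed counts of small-subunit genes divided by those of large-subunit genes came to 0.7005 to 0.7143 in the 8 gel libraries and 0.7204 to 0.7392 in the 8 plastic libraries, and the ranges did not touch. Group means were 0.707 ± 0.00574 in male gel, 0.729 ± 0.00787 in male plastic, 0.709 ± 0.00368 in female gel and 0.726 ± 0.0088 in female plastic (SD, n = 4). This ratio does not depend on how libraries are scaled. It is weighted to the most abundant genes: on leaving out each of the 79 genes in turn, the surfaces stayed apart in 66 cases and overlapped in 13, among them the omission of RPS2, RPSA, RPS3, RPL4 or RPL5. The ratio of female plastic 4, 0.7392, exceeded those of the other female plastic libraries (0.7205 to 0.7234).

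**Figure D2:**
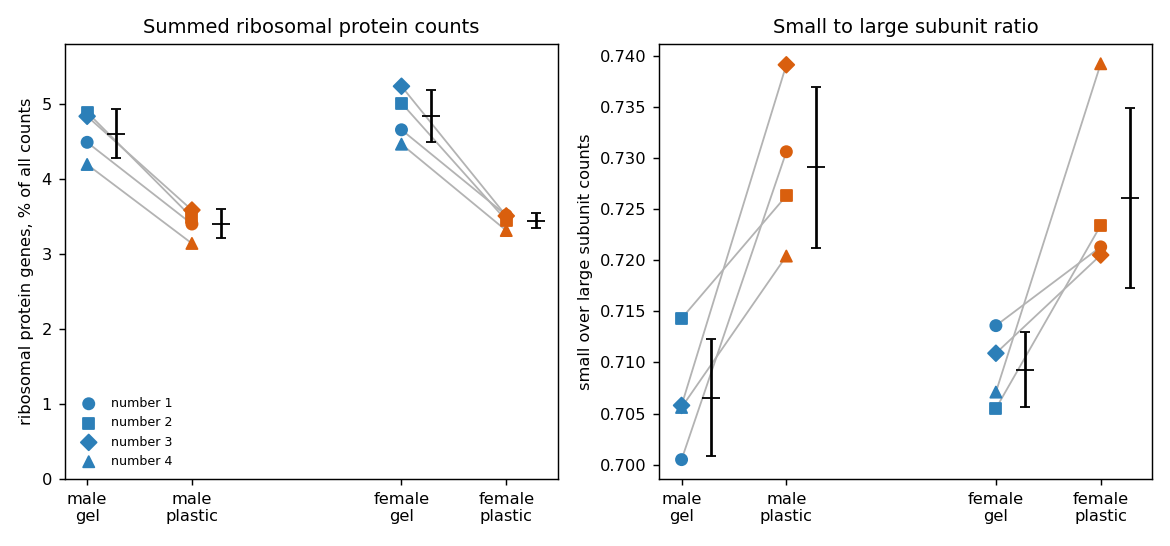
Left, the share of counts held by the 79 ribosomal protein genes (%, axis from 0); right, the ratio of small-subunit to large-subunit counts (axis not from 0), by group. Points are libraries, joined by culture number; crosses with bars are mean ± SD (n = 4). All 8 plastic libraries lie below all 8 gel libraries in the share, and above them in the ratio.

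Each gene was tested with the quasi-likelihood F test of edgeR over all 16 libraries, and called at a Benjamini-Hochberg adjusted p under 0.05 over 14530 genes. RPL3L and RPL10L did not pass the filter on low counts, which leaves 77 genes, 32 of the small and 45 of the large subunit. In male cells 10 of 77 (13.0%) fell on plastic and none rose. Of all tested genes 12.9% fell and 12.9% rose, so the share of ribosomal protein genes that fell was that of the background. Their direction was more uniform than the calls: 70 of 77 changes (90.9%) were negative, against 53.3% over all tested genes. The median log2 change was -0.18, against -0.034 over all genes, and the range was -0.56 to 0.23. Gel and plastic values did not overlap for 13 of the genes, all lower on plastic, where 14% of all tested genes did so in that direction.

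Of the 10 genes called in male cells 9 encode large-subunit proteins and 1, RPS26, a small-subunit protein of the mRNA exit channel. RPL19, which forms a bridge between the subunits, stood at 590.9, 790.4, 646.5 and 582.8 CPM in male gel cultures 1 to 4 and at 519.9, 533.7, 544.2 and 433.2 CPM in male plastic cultures 1 to 4 (log2 change -0.36, SE 0.11, adjusted p = 0.0261). All 4 plastic values lay below the gel values. RPL5 was at 905.6, 1410, 981.6 and 829.6 CPM on gel and 792.9, 770.5, 797.8 and 651.9 CPM on plastic (-0.45, SE 0.14, adjusted p = 0.0271). Here too the groups did not overlap, but the value of 1410 CPM came from male gel 2, the library that stood apart, and without it the change was -0.27 (SE 0.11, adjusted p = 0.0805). RPL27, a large-subunit protein, was at 174.5, 206.6, 201.2 and 176.4 CPM and 153.2, 151.9, 172.2 and 140.4 CPM (-0.30, SE 0.09, adjusted p = 0.0276). The other male calls were RPL17 (-0.33), which lines the exit tunnel of the nascent chain, RPL24 (-0.34), another bridge protein, RPL15 (-0.32), RPL34 (-0.29), RPL13A (-0.29), RPS26 (-0.29) and RPL3 (-0.25). Values of RPL13A and RPL15 overlapped between the male groups and those of the other 8 did not.

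The male calls lay close to the threshold, with adjusted p of 0.0261 to 0.042. Without male gel 2 only RPL13A was called, without male plastic 2 only RPL19, and without male plastic 4 none. Without male gel 3 the number was 3, and without male plastic 1 it was 2. Of all tested genes 9.13% to 11.8% were lower in male cells in these settings. Without male gel 2 and female plastic 4 together, a setting chosen after the data had been seen, 6 were called (7.79% of the 77, where 14.0% of all tested genes were lower): RPL13A, RPL15 and RPL3 from the list above, and RPL8, RPS2 and RPS9.

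In female cells 21 of 77 genes (27.3%) fell on plastic and none rose, where 11.3% of all tested genes fell and 12.7% rose. This share came close to the background when female gel 2, female gel 3, female plastic 1 or female plastic 4 was left out. Changes were negative in 74 of 77 (96.1%), against 53.7% over all genes. Their median log2 change was -0.26 (all tested genes, -0.037) and they ran from -0.56 (RPS2) to 0.28 (RPS15A). Both subunits took part, with 7 of 32 small-subunit and 14 of 45 large-subunit genes called. Values did not overlap between gel and plastic for 28 genes, all lower on plastic (14% of all tested genes). With the culture number as a block, 33 of the 77 genes (42.9%) were called lower, where 13.1% of all tested genes were, and these are the 21 and 12 more: RPLP0, RPSA, RPL18, RPL19, RPL30, RPL31, RPL36, RPL37A, RPL39, RPS3, RPS3A and RPS4X.

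A set of 8 genes was called in female cells under all 26 other settings tried, which include the omission of each library: RPS2, RPL3, RPL8, RPL10A, RPL12, RPL13A, RPLP1 and RPS19. The share of all tested genes called in every setting was not computed, so this number has no background beside it. RPS2 (chromosome 3, 39996179 to 40003110 in Sscrofa11.1, where its annotated span overlaps RNF151 and NDUFB10), a small-subunit protein near the mRNA entry channel, had the largest fall. It stood at 1310, 1495, 1439 and 1255 CPM in female gel cultures 1 to 4 and at 993.7, 1014, 1012 and 721.8 CPM in female plastic cultures 1 to 4 (-0.56, SE 0.14, adjusted p = 0.00833). The plastic values were all lower, and the lowest, that of female plastic 4, lay well under the other 3. Its log2 change was -0.45 (adjusted p = 0.00518) when male gel 2 and female plastic 4 were left out.

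RPL13A (chromosome 6, 54551772 to 54568752), which also serves in a complex that silences inflammatory mRNAs, was at 780.9, 851.2, 934.2 and 750.2 CPM on gel and 577.1, 648.5, 645.1 and 617.5 CPM on plastic (-0.41, SE 0.10, adjusted p = 0.00471). RPL10A (chromosome 7, 31327763 to 31330624), the protein of the stalk beside the exit site for used tRNA, was at 504.3, 559.4, 601.9 and 464.8 CPM and 414.6, 412.9, 436.1 and 368.4 CPM (-0.38, SE 0.09, adjusted p = 0.00641). In either gene all female plastic values lay below all female gel values. RPL3 (chromosome 5, 8922697 to 8929768), which reaches towards the peptidyl transferase centre, was at 827.4, 944.7, 938.7 and 839.9 CPM and 716.4, 714.4, 746 and 672.5 CPM (-0.32, SE 0.08, adjusted p = 0.0104). RPL8 (chromosome 4, 136105 to 138651), another protein close to that centre, was at 645.4, 754.4, 747 and 660.1 CPM and 535.2, 546, 584.4 and 452.6 CPM (-0.41, SE 0.11, adjusted p = 0.0126). Both sets of values were again separate between the surfaces.

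RPS19 (chromosome 6, 50003198 to 50010135), the gene most often mutated in Diamond-Blackfan anaemia, had a narrow spread on gel. Its values were 600.7, 628.8, 617 and 591.8 CPM on gel and 504.7, 515.1, 539.2 and 458.9 CPM on plastic (-0.27, SE 0.07, adjusted p = 0.0107). The remaining pair of the 8 sits at the stalk that recruits translation factors. RPLP1 (chromosome 1, 167296084 to 167298264), a protein of the stalk itself, was at 789.3, 885, 893.9 and 819.5 CPM and 680, 694.8, 744.3 and 571.2 CPM (-0.33, SE 0.09, adjusted p = 0.0118). RPL12 (chromosome 1, 267961398 to 267964881), at the base of the stalk, was at 386.3, 428.2, 445.8 and 363.8 CPM and 301.6, 338.4, 333.8 and 257.3 CPM (-0.40, SE 0.11, adjusted p = 0.0121). Its annotated span overlaps LRSAM1.

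RPS9 and RPS13, small-subunit proteins also called in female cells, had their lowest values in female plastic 4. RPS9 was at 377.2, 400, 374.8 and 355.6 CPM on gel and 301.5, 295.3, 305.3 and 194.5 CPM on plastic (-0.46, SE 0.15, adjusted p = 0.033), and RPS13 at 365.5, 394.5, 398.4 and 341.7 CPM and 293.1, 306.6, 322.8 and 214.6 CPM (-0.40, SE 0.13, adjusted p = 0.0299). In either gene the surfaces did not overlap. Without female plastic 4 neither was called (RPS9, -0.33, adjusted p = 0.0910; RPS13, -0.29, adjusted p = 0.0850), and without male gel 2 as well both were (adjusted p = 0.00456 and 0.0374). RPL15 and RPS26, by contrast, fell in both sexes. RPS26 was at 384.8, 465.8, 462.9 and 383.3 CPM in female gel and 311.7, 331.6, 347.3 and 361.5 CPM in female plastic, and at 404.3, 436.8, 420.2 and 361.8 CPM in male gel and 331.9, 350.6, 355.4 and 288.9 CPM in male plastic. RPL15 had means of 779 ± 78.2 CPM and 599.7 ± 67.5 CPM in the female and 764 ± 73.8 CPM and 613 ± 56.1 CPM in the male groups (SD, n = 4).

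The other 13 female calls, with RPS9, RPS13, RPL15 and RPS26 among them, had log2 changes of -0.29 (RPL32) to -0.46 (RPS9). They included RPL10 (-0.43), RPL38 (-0.41), known for its role in translating Hox mRNAs in the mouse embryo, and RPL35A (-0.38). The weakest was RPL17, with an adjusted p of 0.0495. Just outside the threshold lay RPLP0 (adjusted p = 0.051) and RPSA (0.0573). The number of female calls was 8 (10.4% of the ribosomal protein genes) without female gel 2 and 8 (10.4%) without female gel 3. It was 9 (11.7%) without female plastic 1 and 10 (13.0%) without female plastic 4. Of all tested genes 8.99%, 8.91%, 9.84% and 9.12% fell in these settings, so the female share then lay close to the background. Without female gel 1, female gel 4, female plastic 2 or female plastic 3 the shares were 20.8%, 29.9%, 18.2% and 29.9%. Of all tested genes 8.89% to 9.36% then fell. The number was 34 (44.2%, against 15.0% of all tested genes) without male gel 2. It was 25 (32.5%, against 14.5%) without both male gel 2 and female plastic 4, and 18 of these were among the 21.

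**Figure D3:**
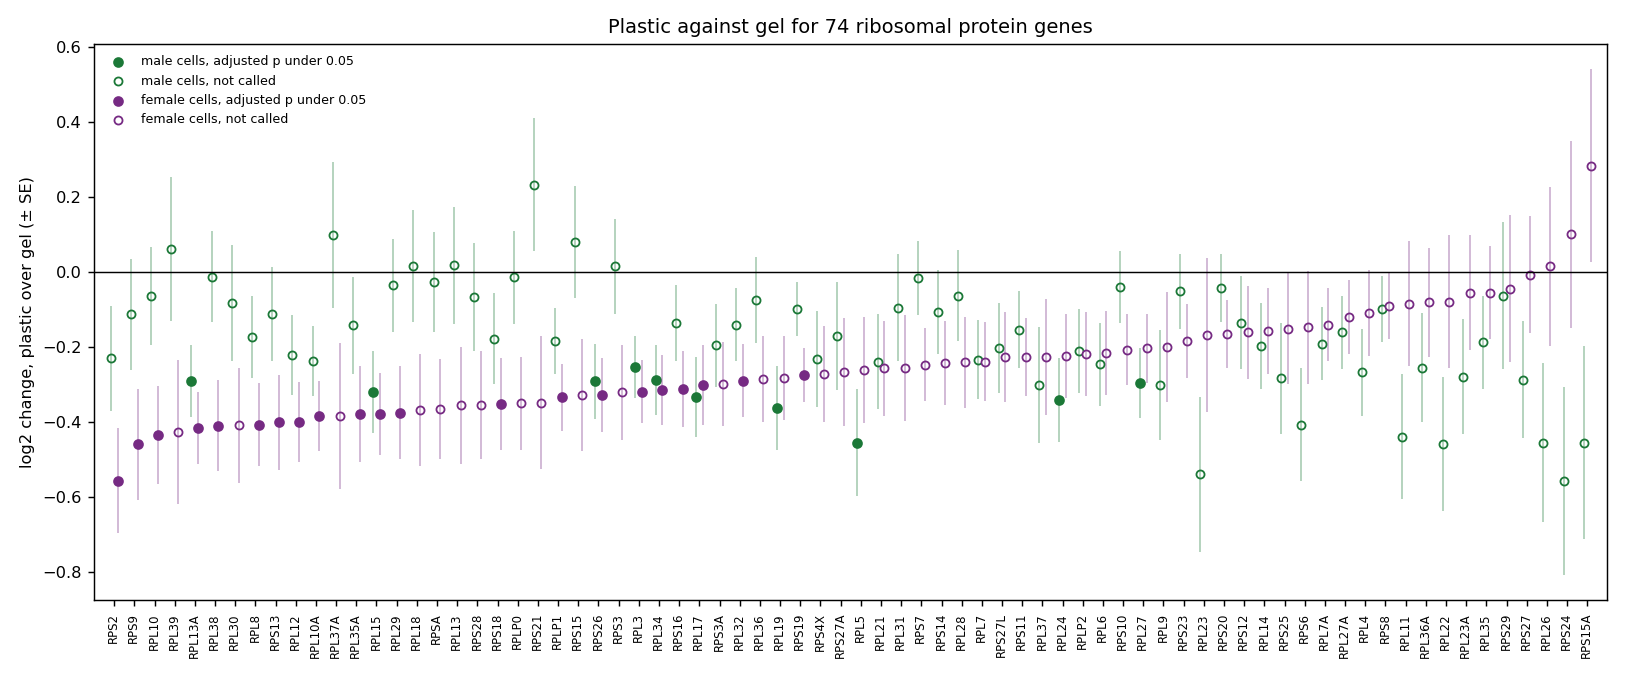
log2 change, plastic over gel, of 74 of the 77 tested ribosomal protein genes in male (green) and female (purple) cells, with SE bars, ordered by the female change. Filled points have an adjusted p under 0.05 (10 male, 21 female). Nearly all points lie below 0; RPS15A and RPS24, at the right, are negative in male and positive in female cells.

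RPL3, RPL13A, RPL15, RPL17, RPL34 and RPS26 were called in both sexes, which is 60.0% of the male and 28.6% of the female calls, and 52 of 77 genes were called in neither. The same overlap was not computed over all tested genes, so it cannot be called large or small. A larger number of calls in female cells is not itself a difference between the sexes. The test of that difference, the female minus the male surface change, called 0 of 77 genes with edgeR and 0 with DESeq2 (0 of all 14530 genes with either), and 2 of the 77 had an unadjusted p under 0.05 with edgeR. That number was 13 with the culture number as a block, 10 without female plastic 3, 9 without male gel 3 and 0 without male gel 2 and female plastic 4, with none called in any of these. The share of all tested genes under this unadjusted threshold was not computed, and genes that vary together are not independent. These numbers are therefore a description only. The median difference was -0.09 and the range -0.58 (RPS21) to 0.74 (RPS15A). The 5 genes with the smallest p on the positive side were RPS15A, RPS24, RPL26, RPL22 and RPL11, and all 5 were far above the rest of their group in male gel 2. On the negative side they were RPS21, RPL38, RPL10, RPL29 and RPS15. RPS21 was at 96, 57.72, 105.2 and 90.51 CPM in male gel and 100.7, 100.3, 121 and 89.05 CPM in male plastic, and at 106, 111.9, 126.8 and 102.3 CPM in female gel and 84.25, 95.36, 109.1 and 62.52 CPM in female plastic, with its lowest values in male gel 2 and female plastic 4. Without male gel 2 and female plastic 4 the difference was 0.05 for RPS15A, 0.01 for RPS24 and -0.30 for RPS21. In that setting 73 of 77 differences were negative with a median of -0.10 (all tested genes, -0.004), none called. Without female gel 3, 43 of 77 were negative, with a median of -0.038.

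Compared by culture number, the 4 male pairs had 65, 49, 70 and 75 of the 77 genes lower on plastic and the 4 female pairs had 76, 77, 77 and 53. The pairs with the fewest, male 2 and female 4, are those that hold the libraries standing apart. Over all 14530 tested genes, 48.5% to 53.4% were lower on plastic in a pair. Lower on plastic in all 8 pairs were 19 of the 77 (24.7%), against 13.3% of all tested genes, and 0 were higher in all 8, against 14.2%. The 19 include RPLP1, RPLP2, RPL3, RPL12, RPL13A, RPL10A, RPS19 and RPS4X. A further 47 were lower in 7. RPS12, RPS15A, RPS21 and RPL39 were among those lower in only 5.

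**Figure D4:**
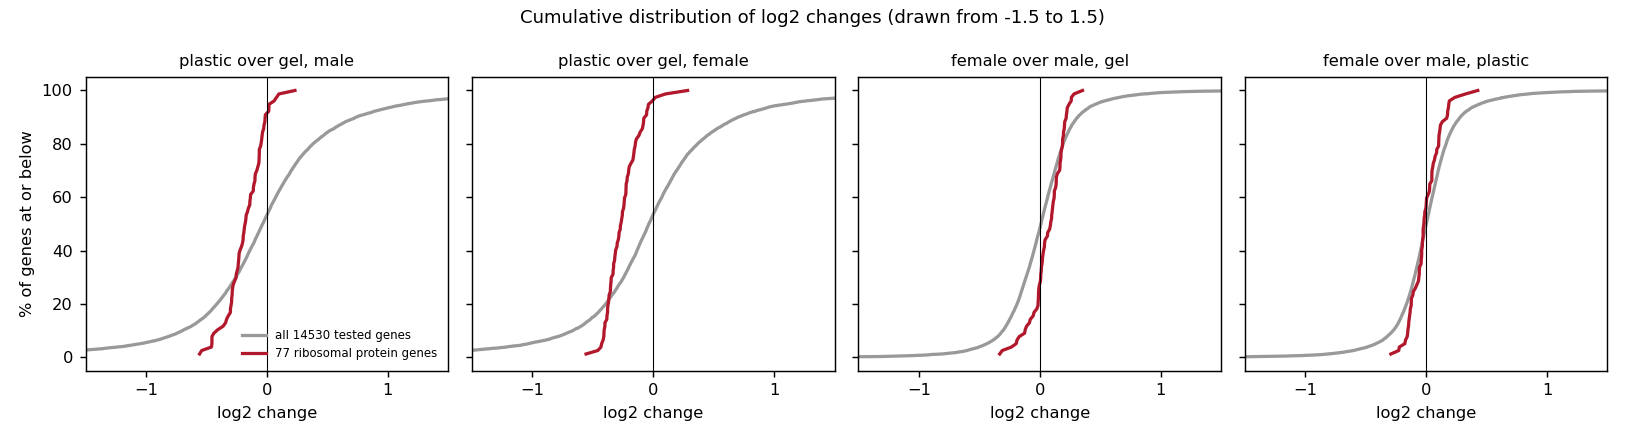
Share of genes (%) at or below each log2 change, for all 14530 tested genes (grey) and the 77 tested ribosomal protein genes (red), in 4 comparisons. In both surface comparisons the red curve lies left of 0 almost throughout (medians -0.18 and -0.26). Between the sexes on gel, 27.3% of the 77 genes lie below 0 against 48.2% of all tested genes (medians 0.09 and 0.01). Between the sexes on plastic the red curve lies close to the grey curve (medians -0.02 and 0.001).

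The median surface change of the ribosomal protein genes was negative with every scaling, but its size depended on the scaling. Scaled to total counts, without TMM, 57 male and 66 female ribosomal protein genes were called lower (74.0% and 85.7%, where 33.1% and 29.8% of all tested genes were), and the median over all tested genes itself moved by -0.24 in either sex. Calls over all genes then split into 1141 higher and 4810 lower in male cells (1876 and 1872 with TMM) and 1072 and 4330 in female cells (1839 and 1637). Relative to the median of all genes, the ribosomal protein median lay at -0.14 in male and -0.23 in female cells with TMM, with RLE factors, with DESeq2 and with total counts. A change of scaling factors moves all genes by nearly the same amount, so these equal values are not separate support. With limma-voom the values were -0.16 and -0.22.

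Of the genes with roles of their own, the stalk proteins come first. RPLP0, the scaffold of the stalk, was at 2007, 2183, 2158 and 1881 CPM in female gel and 1629, 1777, 1799 and 1253 CPM in female plastic, without overlap, but was not called (-0.35, SE 0.12, adjusted p = 0.051). In male cells its mean was 1787 ± 261 CPM on gel and 1770 ± 73.9 CPM on plastic (log2 change -0.01). RPLP2, the partner of RPLP1, was not called in either sex (-0.21, SE 0.11 in male cells and -0.22, SE 0.11 in female cells). RPSA, which also acts as a laminin receptor precursor, went from 1310 ± 166 CPM on gel to 1017 ± 186 CPM on plastic in female cells and from 1166 ± 111 CPM to 1145 ± 100.2 CPM in male cells (SD, n = 4).

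RPS6, the substrate of the S6 kinases, was at 922.8, 1506, 1043 and 856.9 CPM in male gel and 819.7, 855.6, 878.4 and 712.9 CPM in male plastic (-0.41, SE 0.15, adjusted p = 0.0573). It was not called, and the highest value was again that of male gel 2, without which the change was -0.20 (adjusted p = 0.205). In female cells the log2 change of RPS6 was -0.15. RPL11, which joins RPL5 in binding MDM2, was at 449.5, 815.9, 484.1 and 453.5 CPM in male gel and 412.7, 425.8, 414.6 and 373.4 CPM in male plastic (-0.44, SE 0.17, adjusted p = 0.0645). The groups did not overlap, yet without male gel 2 the change was -0.19. RPS27A, made as a fusion with ubiquitin, was not called (-0.17, SE 0.14 in male cells and -0.27, SE 0.14 in female cells).

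There are 4 X-linked members. RPS4X (chromosome X, 58149302 to 58155179), which escapes X inactivation in human cells, was at 1034, 1330, 1183 and 942.9 CPM in male gel and 1168, 1190, 1283 and 925.9 CPM in female gel. On plastic it was at 1000, 976.4, 1061 and 789.3 CPM in male and 935.6, 1005, 994.1 and 846.3 CPM in female cells. The sexes overlapped on either surface: female minus male log2 differences were 0.02, SE 0.13 on gel and -0.02, SE 0.13 on plastic. RPL10 (chromosome X, 124927249 to 124929791), which joins the large subunit late in its maturation, fell on plastic in female cells (-0.43, SE 0.13, adjusted p = 0.0239), from 1228, 1407, 1329 and 1178 CPM to 957.5, 1050, 1105 and 696.3 CPM, and had a change of -0.06 in male cells. The female change was -0.31 without female plastic 4, where it was not called (adjusted p = 0.0639), and again with both divergent libraries left out, where it was (adjusted p = 0.00987). RPL36A (chromosome X, 83018305 to 83022285) and RPL39 (chromosome X, 98178148 to 98181439), a small protein of the exit tunnel, were not called in any comparison with TMM and no block. With the culture number as a block RPL39 fell in female cells, and with total counts RPL36A fell in male cells (adjusted p = 0.00795) and RPL39 in female cells (adjusted p = 0.00993). The female minus male differences of the 4 X-linked genes ran from -0.09 to 0.22 on gel and from -0.29 to 0.09 on plastic, and none of them was called. An annotated pseudogene lies within the span of RPS4X and a non-coding RNA overlaps RPL39, so some of their reads may come from these.

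The tissue-restricted paralogs were nearly silent. RPL3L, the striated muscle form of RPL3, had 0 to 6 counts in a library, and RPL10L, the testis form of RPL10, had 1 count in female plastic 2 and 0 in the other 15. RPS27L, the damage-inducible paralog of RPS27, was at 42.16, 61.27, 49.08 and 50.84 CPM in male gel, 46.54, 39.72, 43.67 and 46.83 CPM in male plastic, 63.04, 51.22, 52.84 and 55.51 CPM in female gel and 51.03, 39.75, 45.75 and 53.62 CPM in female plastic. Its log2 changes on plastic were -0.20, SE 0.12 in male and -0.23, SE 0.12 in female cells, neither called. RPS27 itself had changes of -0.29, SE 0.16 and -0.01, SE 0.16, also not called, and without male gel 2 the male change was -0.08 (adjusted p = 0.689). RPL39L was not analysed here.

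Between the sexes no ribosomal protein gene was called on either surface. On gel, 0 of 77 were called with edgeR or DESeq2, and 0 had an unadjusted p under 0.05 with edgeR, where 0.0964% of all tested genes were lower and 0.00688% higher in female cells. The female minus male log2 difference was positive for 56 of 77, with a median of 0.09 and a range of -0.33 (RPS24) to 0.35 (RPS21). The smallest p on the positive side belonged to RPS21, RPS7, RPS15, RPS19 and RPL38, all with an adjusted p of 0.8515. RPS19, at 565.6, 535.7, 550.9 and 566.7 CPM in male gel against 600.7, 628.8, 617 and 591.8 CPM in female gel, was the single gene whose values did not overlap (0.895% of all tested genes were higher and 1.14% lower in female gel without overlap). The smallest p on the negative side belonged to RPS24, RPS15A, RPL26, RPL22 and RPL11, all of them far above the rest of their group in male gel 2. With male gel 2 and female plastic 4 left out, 76 of the 77 differences were positive. Their median was 0.10 (all tested genes, 0.001), none was called and 2 had an unadjusted p under 0.05. Without female gel 3, 42 of the 77 were positive, with a median of 0.02. These genes vary together from library to library, so their signs are not independent.

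On plastic the median female minus male difference was -0.02, the range -0.29 (RPL39) to 0.43 (RPS15A), and the lowest adjusted p 0.9797. Again 0 of 77 were called with edgeR or DESeq2 and 0 had an unadjusted p under 0.05 with edgeR (0.0964% of all tested genes were lower and 0.0275% higher in female cells), and values of the sexes overlapped for every one of the 77 (1.58% of all tested genes were lower and 1.27% higher in female plastic without overlap). On the positive side the smallest p belonged to RPS15A, RPL35, RPS24, RPL26 and RPL11 and on the negative side to RPL39, RPL38, RPSA, RPS21 and RPL29. SEs of these differences were 0.07 to 0.26, median 0.12. Without male gel 2 and female plastic 4 the difference was 0.17 for RPS15A and -0.12 for RPL39, and 43 of the 77 were positive with a median of 0.009.

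Several genes were high, or low, in both libraries that stood apart. RPS15A was at 434.5, 1027, 437.2 and 413 CPM in male gel and at 500, 454.1, 474 and 841.4 CPM in female plastic, so that male gel 2 and female plastic 4 were far above the other 3 of their groups. RPS24, a small-subunit protein, was at 702, 1741, 779.8 and 707.6 CPM and 716.5, 721.7, 728.6 and 1184 CPM, with the same libraries on top. RPL26, which lies at the mouth of the exit tunnel, was at 352.7, 753.9, 432.3 and 353.7 CPM and 345.5, 379.7, 357.7 and 544.4 CPM. RPL22, RPL23 and RPL11 were likewise high in both. RPS21, on the other hand, was lowest in the same libraries, at 57.72 CPM in male gel 2 and 62.52 CPM in female plastic 4. RPL13, RPL37A and RPS9 were low in both as well.

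Over the 77 genes the deviations of male gel 2 and female plastic 4 had a correlation of r = 0.75, and over all 14530 genes r = 0.30. Male gel 2 was as much like male plastic 1 (0.77) over the 77 genes. Male gel 1 and male gel 3 (0.84) and male gel 3 and female plastic 2 (0.78) had high values as well. Each deviation is taken from the other libraries of its group, so those of male gel 1 and male gel 3 contain male gel 2 (r with it -0.97 and -0.91). That of female plastic 2 likewise contains female plastic 4 (-0.90). Their values therefore cannot show whether the likeness is particular to male gel 2 and female plastic 4. All these correlations are descriptions across genes, which are not independent. RPS29 went its own way, with a deviation of -0.04 in male gel 2 and 0.72 in female plastic 4. Male gel 2 was the shallowest of the 16 libraries, at 16.9 M counts, and female plastic 4 held 25.95 M. The part of depth, RNA quality or library construction in this pattern was not tested.

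**Figure D5:**
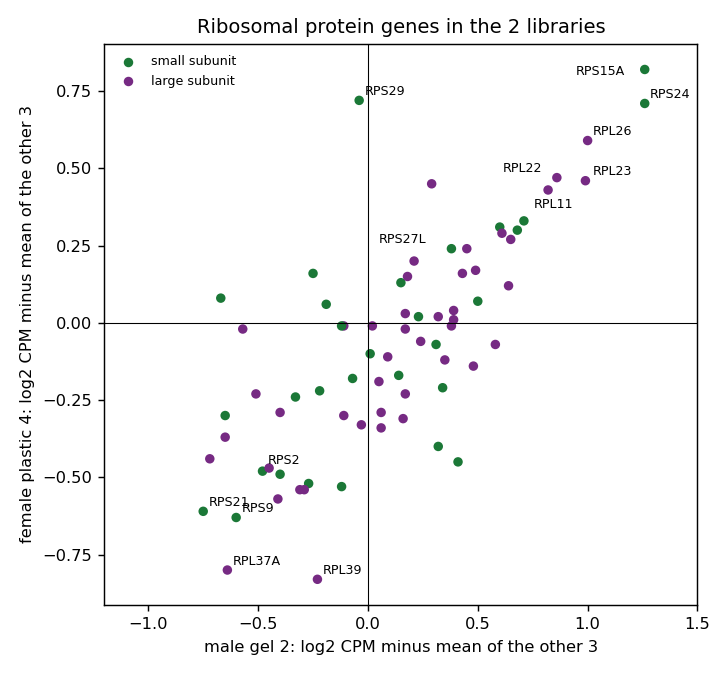
Deviation (log2 CPM minus the mean of the other 3 libraries of the group) of 74 of the 77 tested ribosomal protein genes in male gel 2 (x) and female plastic 4 (y), small-subunit genes in green and large-subunit genes in purple. Points run from the lower left (RPS21, RPL37A, RPS9) to the upper right (RPS15A, RPS24, RPL26); RPS29 lies off this line.

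With group means removed, the ribosomal protein genes varied together from library to library. The median Pearson correlation over the 2926 pairs of genes was 0.52 in all 16 libraries, with 21.6% of pairs negative. It was 0.82 in the 14 libraries without male gel 2 and female plastic 4, with 2.6% negative. RPS27L was the exception: its median correlation with the other members was -0.23 over 16 libraries and -0.47 over 14. Levels scaled in common share the error of the scaling, and these correlations are given as a description. The heat map of library deviations shows the same as whole rows of one colour, pale red for female gel 3 and male plastic 3 and pale blue for female gel 4 and male plastic 4.

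Of 7 tested ribosome-associated genes outside the naming rule, 2 (28.6%) fell in male and 1 (14.3%) in female cells on plastic and none rose, where 12.9% and 11.3% of all tested genes fell. RPL22L1, the paralog of RPL22, fell in both sexes (-0.40, SE 0.11, adjusted p = 0.012 in male cells, and -0.64, SE 0.11, adjusted p = 0.000377 in female cells), while RPL22 itself was not called (-0.46 and -0.08, and -0.19 in male cells without male gel 2). RPL36AL, the paralog of RPL36A, fell in male cells (-0.72, SE 0.22, adjusted p = 0.023). FAU, which encodes a ubiquitin-like fusion of a ribosomal protein, the scaffold gene RACK1, RPL7L1 and RPL26L1 were not called. With the culture number as a block 2 of the 7 fell in female cells, where 13.1% of all tested genes did.

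Of 36 translation factors 8 (22.2%) fell and none rose in male cells, and 5 (13.9%) fell and 2 (5.56%) rose in female cells, where 12.9% of all tested genes fell and 12.9% rose in male and 11.3% fell and 12.7% rose in female cells. Their medians were -0.15 and -0.13 (all tested genes, -0.034 and -0.037). EEF1A1, the factor that delivers tRNA and whose mRNA also carries the oligopyrimidine tract, fell in both sexes (-0.34, SE 0.10, adjusted p = 0.0156 in male cells, and -0.41, SE 0.10, adjusted p = 0.00548 in female cells). EIF3L, EIF4A1 and EEF1B2 fell in both as well. EIF4E, the cap-binding protein, rose in female cells (0.55, SE 0.13, adjusted p = 0.00641), as did the release factor ETF1 (0.37). With total-count scaling neither was called. In that setting 21 factors (58.3%) fell in male and 20 (55.6%) in female cells, where 33.1% and 29.8% of all tested genes did. Of 77 mitochondrial ribosomal proteins, which form a separate ribosome, 10 (13.0%) fell and none rose in male cells and 15 (19.5%) fell and 1 (MRPS10, 0.33) rose in female cells, against the same 12.9% and 11.3% of all genes that fell, with medians of -0.15 and -0.17. With total counts 40 of the 77 fell in male and 39 in female cells, where 33.1% and 29.8% of all tested genes did. With the block by culture number MRPS10 was not called. Those with the smallest adjusted p were MRPS5 (-0.63), MRPS26 (-0.47) and MRPL47 (-0.39) in male cells and MRPL45 (-0.63), MRPS6 (-0.94) and MRPL55 (-0.67) in female cells.

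Of 32 genes for nucleolar ribosome biogenesis 14 (43.8%) fell in male and 8 (25%) in female cells and none rose, where 12.9% and 11.3% of all tested genes fell, with medians of -0.31 and -0.19. With total counts 26 (81.2%) and 19 (59.4%) fell, where 33.1% and 29.8% of all tested genes did. Leaving out male gel 2 and female plastic 4 gave 17 (53.1%) and 13 (40.6%), with 1 gene higher in male cells. In that setting 14.0% and 14.5% of all tested genes fell. BYSL, needed for small-subunit maturation, fell most (-1.09, SE 0.13, adjusted p = 1.28e-05 in male cells, and -0.99, SE 0.13, adjusted p = 3.03e-05 in female cells). NOB1, the nuclease that trims the small-subunit RNA, fell in both sexes (-0.57 and -0.65), as did NOP56 (-0.40 and -0.39). WDR12, a large-subunit assembly factor, fell in male cells (-0.58).

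Among 18 genes of mTOR signalling and of oligopyrimidine mRNA control, 5 (27.8%) rose and 2 (11%) fell in male cells. In female cells 3 (16.7%) rose and 2 (11%) fell. Of all tested genes 12.9% rose and 12.9% fell in male cells, and 12.7% rose and 11.3% fell in female cells. DDIT4, an inhibitor of mTOR complex 1, fell in both sexes (-1.44, SE 0.16, adjusted p = 9.65e-06 in male cells, and -1.47, SE 0.16, adjusted p = 7.95e-06 in female cells). SESN1, another such inhibitor, fell alike (-1.48 and -1.49). LARP1 rose in both (0.37, SE 0.08, adjusted p = 0.00284 in male cells, and 0.46, SE 0.08, adjusted p = 0.000483 in female cells), as did RICTOR (0.58 and 0.75) and TSC1 (0.31 and 0.27). With total-count scaling 0 of the 18 genes rose in male and 2 in female cells, and 2 and 4 fell. Of all tested genes 7.85% and 7.38% then rose, and 33.1% and 29.8% fell. In the sex comparisons the one call among all these lists was EIF2S3, an X-linked initiation factor, higher in female than in male cells on plastic.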

How the data were processed

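Libraries were made from RNeasy-isolated RNA with a KAPA mRNA kit, per the labels. The authors deposited raw counts per gene. The submitters' processing notes name Trimmomatic 0.36 for trimming, HISAT2 2.1.0 with Sscrofa11.1 for alignment and featureCounts for counting. Strand and multi-mapping settings are not given in the sources used here, so reads of processed pseudogenes, paralogs and the genes overlapping 14 members cannot be told apart. Of 29576 rows, 24 with numbers for names (0.169% of counts) were left out. Symbols and coordinates came from RefSeq (78 of 79 members matched 1 entry).

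Genes passing filterByExpr (14530) were fitted with edgeR 4.0.16 as 4 group means over 16 libraries (TMM, 12 residual degrees of freedom) and tested by quasi-likelihood for surface within sex, sex within surface and their interaction. The call was an adjusted p under 0.05. The test was checked on simulated data. The members, gene lists and settings were chosen with earlier results of these data known. Named whatever their result were the stalk proteins, RPSA, RPS6, RPS27A, RPL5, RPL11, the X-linked members and the paralogs with RPL3 and RPS27. Per comparison the 5 members with the smallest p in each direction were added, and from other lists up to 3 called genes per direction, of which a part is described; further genes were named after their values were seen. Some genes enter the counts but are not reported here by name.

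Alternatives were RLE factors, total counts, TMM without the members, DESeq2 1.42.0, limma-voom (limma 3.58.1), no filter, a CPM filter, only the 8 libraries compared, a block by culture number and leaving out each library. The block is given because libraries of the same sex and number deviated together (r 0.13 to 0.49 over 8 pairs, and 16 of 16 libraries were closest to their own number), though no label ties a number to 1 animal.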

Additional observations from a re-analysis of the deposited data

Results flagged for a closer look

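In 14 of 196 sets of 4 libraries examined, 1 library lay apart from the other 3 by Dixon's test at the 95% level, and chance alone gives about 1 in 20. Of these 14, 8 concern female plastic 4, 4 male gel 2, 1 female plastic 2 and 1 male plastic 4. Male gel 2 was above the range of the other 3 libraries for RPL11 (815.9 CPM against 449.5 to 484.1), RPL22 (384.4 against 201.7 to 231.2), RPS15A (1027 against 413 to 437.2) and RPS24 (1741 against 702 to 779.8). Female plastic 4 was above for the same 4 genes, RPL11 (571.7 CPM against 412 to 433.4), RPL22 (268.6 against 191.3 to 195), RPS15A (841.4 against 454.1 to 500) and RPS24 (1184 against 716.5 to 728.6). It was also above for RPS6 (1040 against 831.4 to 866.7) and for the ratio of small-subunit to large-subunit counts (0.7392 against 0.7205 to 0.7234). It was below for RPS2 (721.8 CPM against 993.7 to 1014) and RPS9 (194.5 against 295.3 to 305.3). Female plastic 2 was above for RPL27 (162.7 CPM against 158.1 to 158.8), where the whole range is narrow. Male plastic 4 was below for RPS27 (308.8 CPM against 384 to 389.6).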

How the results depend on the processing

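The number of ribosomal protein genes called lower on plastic in male cells, 10, was 57 with total counts, 2 with no filter, 0 in a fit of only the 8 male libraries and 6 without male gel 2 and female plastic 4; leaving out 1 library at a time gave 0 to 15. In female cells the number, 21, was 66 with total counts and 33 with the replicate block, and leaving out 1 library gave 8 to 34. Of all tested genes, 7.01% were lower in male cells with no filter and 9.63% in the fit of only the 8 male libraries. Leaving out 1 library gave 9.13% to 13.6% of all tested genes lower in male and 8.89% to 15.0% in female cells. With total counts the median log2 changes became -0.417 and -0.505, and the summed level without TMM differed by -0.435 in male and -0.49 in female cells on the log2 scale. Among ribosomal protein genes the block changed no call other than those given above and RPL10A and RPS6, gained in male cells. Over 93 named gene results and 2388 values under other settings, 0 called results changed sign, 178 calls were lost and 40 gained, 18 of these with total counts. In 46 cases a change called under neither setting changed sign. The cause of these shifts was not tested.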
